A study of Mus musculus with 6 samples.

Results

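The interferon-stimulated genes of the mouse heart were examined after heat stroke (HS). Members were chosen by symbol: the Ifit, Oas, Gbp, Isg and Trim30 families, symbols that start with Ifi or Irf followed by a digit, and single genes that include Ifih1, Mx1, Mx2, Rsad2, Usp18, Stat2 and Bst2. The rule matched 86 of the 57180 gene IDs, and 67 of them had at least 10 counts in at least 3 of 6 hearts. These 67 members were all tested. The name overstates the set, because the rule reads symbols and not responses. Irf2bp1, Irf2bp2 and Irf2bpl are named for a binding partner of the factor Irf2, Isg20l2 is a nucleolar exonuclease, and Ifitm5 is a bone protein not known for induction by interferon. Transcripts were measured by poly(A) RNA sequencing in 3 HS hearts and 3 sham hearts, with 1 library per heart. All mice were male C57BL/6N animals of 6 to 8 weeks, the labels name no transgene, and both groups went without food and water. HS mice were kept in a chamber at 40 °C until the rectal temperature reached 42 °C and then recovered at 22 to 25 °C, the air temperature of the sham mice. The humidity was 60 to 65% throughout. No source used here gives the time from heating to the collection of the heart. For RNA extraction, the sample labels describe cell lines, while the tissue is labelled heart.

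Interferons are cytokines that put tissue into an antiviral state. Type I interferons bind the receptor Ifnar1/Ifnar2, whose kinases Jak1 and Tyk2 phosphorylate transcription factors such as Stat2. Stat2 and Irf9 are subunits of the complex ISGF3, which binds the interferon-stimulated response element (ISRE) in the promoters of its targets. Interferon gamma acts through the gamma-activated sequence (GAS) and is the main inducer of the guanylate-binding proteins (Gbp). The products of the targets degrade viral RNA, block translation or entry, and sense nucleic acids. In the heart, many of these genes have a basal level in endothelial cells, fibroblasts and resident macrophages.

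Each library held between 22098487 (HS heart 3) and 25855876 counts (HS heart 1), so that 1 count equalled 0.0361 to 0.0508 CPM, the count divided by the depth of the library after trimmed mean (TMM) normalization. Over all 14717 tested genes, the quasi-likelihood test of edgeR called 9 genes (0.0612%) at a Benjamini-Hochberg adjusted p under 0.05. Cardiomyocyte markers were high in all hearts (summed CPM 30762 to 39492 in HS, 33771 to 34908 in sham hearts). HS hearts 1 and 3 stood apart in several marker lists. The 5 atrial markers summed to 3611, 133 and 2703 CPM in HS hearts 1, 2 and 3, and to 86.3 to 104 CPM in sham hearts. Of these, the atrial myosin light chain Myl7 reached 653 CPM in HS heart 1 and, at 477 CPM, was also high in HS heart 3. It was at 0.158 CPM in HS heart 2 and at most 0.797 CPM in the sham hearts. The 4 smooth muscle markers summed to 501, 207 and 498 CPM in HS hearts 1, 2 and 3, and to 122 to 157 CPM in sham hearts. All HS hearts were above all sham hearts, as in 11.0% of single genes, and HS heart 2 was the nearest to them. The 5 fibroblast markers summed to 636, 435 and 1083 CPM in HS hearts 1, 2 and 3, and to 382 to 503 CPM in sham hearts, with HS heart 2 within the range of sham hearts. The mitochondrial ribosomal RNAs took 2.75, 3.16 and 5.55% of the counts in HS hearts 1, 2 and 3, and 1.67 to 1.69% in sham hearts.

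The promoters of the members were read first, since the ISRE is the element through which ISGF3 is known to act. RefSeq promoters of GRCm38.p6 (mm10), from 250 bases before to 50 bases after the gene start, were available for 51 of the 67 members. The ISRE core was searched as 2 copies of GAAA with NN between them, which read as 2 copies of TTTC on the other strand, and the GAS as TTCNNNGAA, which is the same on both strands. An ISRE core was found in 29 of the 51 members (56.9%), against 1079 of 27025 genes (3.99%) in the whole table. In 25 of the 29 members, a match lay within the 200 bases before the start. A GAS was found in 12 members (23.5%), against 9.55% of all genes. The heat shock element, searched as 3 blocks of GAA and its reverse TTC in alternation, with NN between the blocks, was found in 1 member, Bst2, and in 0.662% of all genes. A match is a description of these letters and not evidence of a bound site.

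**Figure D1:**
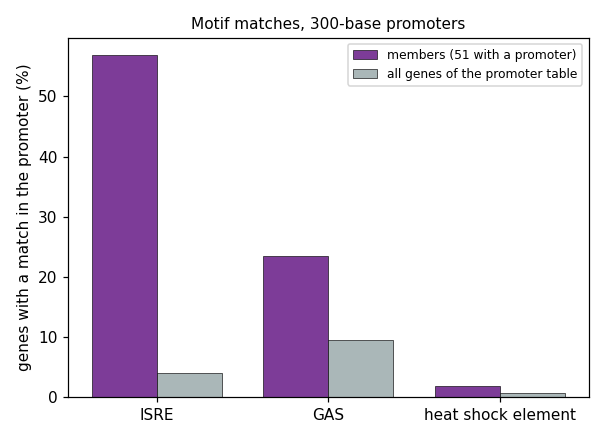
Share of genes (%, y axis) with at least 1 match to the ISRE core, the GAS or the heat shock element (x axis) in their 300-base promoters, for the 51 members with a promoter (purple bars) and for all 27025 genes of the promoter table (grey bars). The ISRE bar of the members stands at 56.9%, against 3.99% for all genes.

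The windows below show the ISRE core (capitals) with its flanks in effectors described in the results and in the ISGF3 subunit Stat2, written 5′ to 3′ on the strand of the gene. They are shown because several members carry the core more than once and because some members share their promoter letters.
Isg15 (chr4:156200861-156200910, minus strand): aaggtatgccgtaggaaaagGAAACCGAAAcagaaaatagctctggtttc
Ifit1 (chr19:34640784-34640833, plus strand): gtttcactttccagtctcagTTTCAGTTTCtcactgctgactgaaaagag
Ifit1bl2 (chr19:34640784-34640833, minus strand): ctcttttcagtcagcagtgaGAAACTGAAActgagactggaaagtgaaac
Ifit3 (chr19:34583387-34583436, plus strand): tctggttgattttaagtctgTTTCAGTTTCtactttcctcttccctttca
Ifit3b (chr19:34607783-34607832, plus strand): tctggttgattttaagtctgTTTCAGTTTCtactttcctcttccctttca
Rsad2 (chr12:26456543-26456592, minus strand): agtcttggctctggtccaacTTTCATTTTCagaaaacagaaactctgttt
Bst2 (chr8:71537573-71537622, minus strand): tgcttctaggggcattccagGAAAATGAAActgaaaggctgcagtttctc
Gbp2 (chr3:142620584-142620633, plus strand): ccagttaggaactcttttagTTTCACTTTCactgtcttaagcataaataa
Gbp7 (chr3:142530263-142530312, plus strand): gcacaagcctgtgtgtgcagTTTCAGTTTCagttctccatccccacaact
Stat2 (chr10:128270256-128270305, plus strand): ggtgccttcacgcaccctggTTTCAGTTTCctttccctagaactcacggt
Isg15 carried 3 cores, of which the middle one, in capitals, overlaps the other two. In Bst2, which also carried 2 overlapping cores, the first core shared bases with a GAS match. Ifit1 and Ifit1bl2 are read in opposite directions from the same stretch of chromosome 19, so both windows are the same bases on opposite strands. Ifit3 and Ifit3b are near-identical copies, and their windows did not differ in any base. Counts of such pairs depend on how the program split shared reads and are uncertain for each copy.

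The Ifi200 genes are a cluster of DNA-binding proteins on chromosome 1, and a core of each of the 7 members of the cluster in which one was found is shown to compare them.
Ifi203 (chr1:173942498-173942547, minus strand): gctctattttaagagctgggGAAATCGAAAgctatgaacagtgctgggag
Ifi207 (chr1:173741821-173741870, minus strand): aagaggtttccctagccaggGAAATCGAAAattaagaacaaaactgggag
Ifi206 (chr1:173491329-173491378, minus strand): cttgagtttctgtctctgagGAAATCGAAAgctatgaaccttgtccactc
Ifi208 (chr1:173673587-173673636, plus strand): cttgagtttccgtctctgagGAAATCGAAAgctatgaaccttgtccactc
Ifi213 (chr1:173599316-173599365, minus strand): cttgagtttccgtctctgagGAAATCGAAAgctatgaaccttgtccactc
Ifi205 (chr1:174031860-174031909, minus strand): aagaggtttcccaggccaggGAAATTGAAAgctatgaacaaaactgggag
Ifi211 (chr1:173913054-173913103, minus strand): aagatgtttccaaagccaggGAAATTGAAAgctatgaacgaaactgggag
The core read GAAATCGAAA in 5 of the 7 windows and GAAATTGAAA in those of Ifi205 and Ifi211. Ifi208 and Ifi213 had the same window throughout. Ifi205 also carried a match after its start, which is not shown.

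The GAS of Irf1, an early response factor for interferon gamma, is shown as the example of that motif, with the GAS in capitals.
Irf1 (chr11:53769904-53769952, plus strand): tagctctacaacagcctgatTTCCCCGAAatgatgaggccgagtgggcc

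Between HS and sham hearts, 0 of the 67 members were called by edgeR's quasi-likelihood test at an adjusted p under 0.05 over all genes (against 0.0612% of all genes). At an unadjusted p under 0.05 there were 7 members (10.4%), against 13.6% of all tested genes. DESeq2 called 1 member (2.38% of all genes), Ifitm5, and limma-voom called 0. Ifitm5 passed the count minimum only through HS hearts, so its higher level in HS was a condition of its entry and nothing is read from its calls. Of the 7, 3 were higher in HS (Ifitm5, Ifi27 and Irf9, against 8.83% of all genes in that direction) and 4 were lower (Rsad2, Irf7, Gbp7 and Ifi35, against 4.76%). The study's own thresholds, a p under 0.05 without a named adjustment and a log2 fold change beyond 1 in either direction, were passed by 1 member, Ifitm5, and by 3.89% of all genes. The log2 fold change was above 0 in 24 members and below 0 in 43 members, against 51.3% of all genes above 0. Its median was -0.11 over the members and 0.01 over all genes. For 54 of the 67 members the upper 95% bound of the log2 fold change was under 1, as it was for 80.1% of all genes, for 49 members the lower bound was over -1 (88.6%), and for 40 members the whole interval lay between -1 and 1 (71.2% of all genes). A doubling in HS hearts was thus outside the interval of those 54 members. The lowest HS heart was above the highest sham heart in 3 members (Ifitm5, Irf9 and Irf1, against 11.0% of all genes), and the highest HS heart was below the lowest sham heart in 5 members (Rsad2, Ifi35, Gbp2, Isg20l2 and Irf5, against 10.9%). In bulk tissue, fewer cells of a type and less RNA per cell cannot be told apart.

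**Figure D2:**
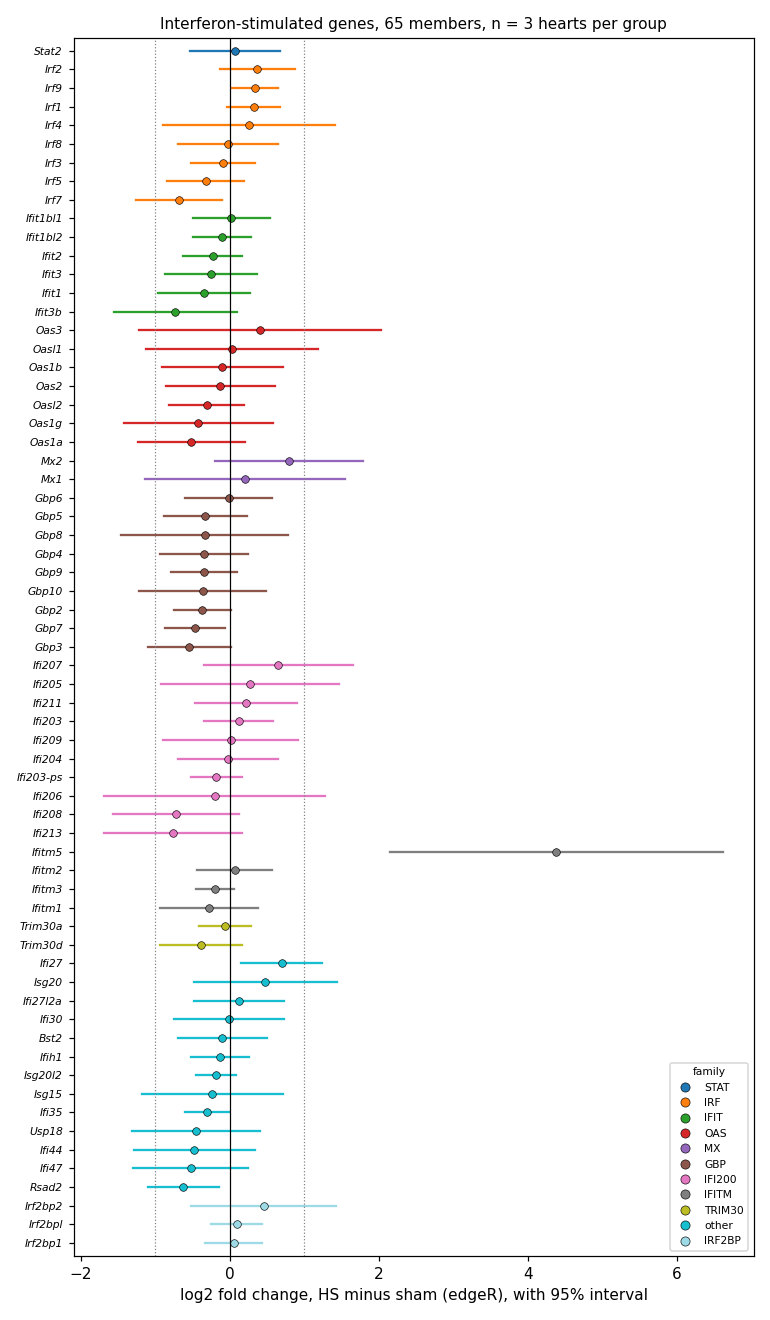
Log2 fold change of HS minus sham (x axis) of 65 members, ordered by family from top to bottom, with the 95% interval from edgeR as a line and the estimate as a point. Dotted lines mark a log2 fold change of -1 and 1. The whole interval of 1 member, Ifitm5 (4.38), lies outside them. Ifitm5 passed the count minimum only through HS hearts, so nothing is read from its place.

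The number of members at an unadjusted p rested on single hearts. Members lower in HS numbered 13 without HS heart 2 (against 8.10% of all genes), but 0 without HS heart 1 (4.37%), 0 without sham heart 1 (2.31%) and 1 without sham heart 2 (2.35%). Members higher in HS numbered 7 without HS heart 1 (against 8.53% of all genes) and 1 without sham heart 2 (4.94%). The share of all genes thus moved with the heart left out as well, and in both directions together it was 21.2% of all genes and 22.7% of the members without HS heart 2. Without HS hearts 1 and 3 together, 5 members were higher (against 6.16% of all genes) and 1 was lower (5.54%). The median over the members was -0.23 without HS heart 2, -0.21 without sham heart 3 and -0.17 without HS heart 3. It was -0.08 without HS heart 1, -0.05 without sham heart 1, and -0.01 when HS hearts 1 and 3 were both left out.

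Subunits of ISGF3 come first. Stat2, the subunit that carries the activation domain, had 12.6, 15.2 and 23.9 CPM in HS hearts, against 18.5, 17.7 and 12.9 CPM in sham hearts. The groups overlapped, HS heart 3 was the highest and HS heart 1 the lowest of all (log2 fold change 0.07 ± 0.26 SE, adjusted p = 0.912). Irf9, the DNA-binding subunit, had 14.9, 16.9 and 19.1 CPM in HS hearts, against 14.8, 13.3 and 12.1 CPM in sham hearts. The groups did not overlap, although HS heart 1 and sham heart 1 were nearly equal (0.34 ± 0.13 SE, adjusted p = 0.343). Irf9 overlaps the gene Rnf31 on the same strand, so that reads of both could be mixed.

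Among the other interferon regulatory factors, Irf7 had the lowest estimate and is itself an ISGF3 target that amplifies type I interferon production. It had 3.97, 6.28 and 4.17 CPM in HS hearts, against 8.61, 8.86 and 5.71 CPM in sham hearts. HS hearts 1 and 3 were below all sham hearts, while HS heart 2 was above sham heart 3 (log2 fold change -0.68 ± 0.25 SE, adjusted p = 0.319). Irf1 had 12.6, 18.0 and 14.1 CPM in HS hearts, against 12.4, 11.9 and 11.5 CPM in sham hearts. The groups did not overlap, by a narrow margin in HS heart 1 (0.32 ± 0.15 SE, adjusted p = 0.399). Of the 9 Irf genes, 5 were above 0 and 4 below. Irf5, a factor of myeloid cells, was below sham in all HS hearts, between 1.52 and 2.03 CPM in HS hearts and between 2.19 and 2.43 CPM in sham hearts (-0.32 ± 0.22 SE, adjusted p = 0.528). Irf3, the factor that Tbk1 activates and that needs no induction, was near 0 (-0.10 ± 0.19 SE).

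Of the effector genes that ISGF3 is best known to induce, Rsad2 (viperin, a radical enzyme that makes a chain-terminating nucleotide) had the smallest p. It had 10.7, 15.3 and 13.0 CPM in HS hearts, against 25.4, 15.8 and 19.0 CPM in sham hearts. All HS hearts were lower, with HS heart 2 just under sham heart 2 (log2 fold change -0.63 ± 0.20 SE, adjusted p = 0.297). Isg15, a ubiquitin-like modifier, had 1.19, 2.72 and 1.17 CPM in HS hearts, against 2.23, 2.39 and 1.37 CPM in sham hearts. HS heart 2 was the highest of all 6 and the other HS hearts were the lowest (-0.23 ± 0.41 SE, adjusted p = 0.810). Usp18, the protease that removes Isg15 and dampens the receptor, had 1.05, 2.65 and 1.68 CPM in HS hearts, against 2.99, 1.85 and 2.49 CPM in sham hearts. HS heart 2 was again the highest HS heart, and it was below sham heart 1 (-0.45 ± 0.37 SE, adjusted p = 0.589).

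Of the Ifit proteins, Ifit1 binds viral RNA that lacks cap methylation. Ifit1 had 2.42, 4.54 and 2.85 CPM in HS hearts, against 4.62, 3.61 and 4.25 CPM in sham hearts. Ifit2 had 11.2, 14.6 and 10.2 CPM in HS hearts, against 16.2, 13.1 and 12.8 CPM in sham hearts. Ifit3 had 6.53, 8.06 and 4.32 CPM in HS hearts, against 9.05, 5.62 and 7.99 CPM in sham hearts. In all 3 genes the groups overlapped, HS heart 2 was the highest HS heart and sham heart 1 the highest sham heart. Their log2 fold changes were -0.35 ± 0.27, -0.23 ± 0.17 and -0.26 ± 0.26 SE for Ifit1, Ifit2 and Ifit3, and edgeR's adjusted p lay between 0.556 and 0.670. Of the 6 Ifit genes, 5 were below 0 (against 48.7% of all genes), and the 6 lie together on chr19:34550694-34650009.

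The 2'-5' oligoadenylate synthetases (Oas) activate RNase L when they meet double-stranded RNA. Oas1a had 1.55, 2.92 and 1.63 CPM in HS hearts, against 3.55, 2.73 and 2.49 CPM in sham hearts. Oasl2 had 8.08, 10.5 and 6.71 CPM in HS hearts, against 13.0, 9.86 and 8.63 CPM in sham hearts. HS heart 2 was again the highest HS heart in both genes. The log2 fold changes were -0.52 ± 0.31 SE for Oas1a and -0.31 ± 0.22 SE for Oasl2, and edgeR's adjusted p was 0.478 and 0.531. Of the 7 tested Oas genes, 5 were below 0 (against 48.7% of all genes), among them Oas1b, which the annotation lists as a polymorphic pseudogene. Oas1a and Oas1g are near-identical copies and uncertain for each copy.

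The Mx genes encode dynamin-like GTPases that trap viral nucleocapsids, and most laboratory mouse strains carry a defective Mx1. The annotation lists Mx2 as a polymorphic pseudogene. Mx2 had 1.26, 4.03 and 2.39 CPM in HS hearts, against 1.75, 1.51 and 1.16 CPM in sham hearts. HS hearts 2 and 3 were above all sham hearts, whereas HS heart 1 was among them (log2 fold change 0.79 ± 0.43 SE, adjusted p = 0.445). Mx1 had 0.469, 1.07 and 0.254 CPM in HS hearts, against 0.439, 0.798 and 0.344 CPM in sham hearts. The counts of Mx1 were between 5 and 27 per HS heart and between 8 and 19 per sham heart (0.20 ± 0.58 SE, adjusted p = 0.890).

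The remaining named targets showed overlapping groups. Bst2 (tetherin, which holds budding virus at the cell surface) had 6.32, 11.1 and 12.0 CPM in HS hearts, against 12.7, 9.65 and 9.10 CPM in sham hearts (log2 fold change -0.10 ± 0.26 SE). Ifih1, the RNA sensor MDA5, had 9.06, 10.9 and 10.1 CPM in HS hearts, against 12.7, 11.5 and 8.72 CPM in sham hearts (-0.13 ± 0.17 SE). Ifi44 had 3.64, 7.74 and 5.69 CPM in HS hearts, against 10.6, 8.10 and 5.07 CPM in sham hearts (-0.48 ± 0.34 SE). For these 3 genes HS heart 1 was the lowest HS heart, and edgeR's adjusted p lay between 0.543 and 0.874. Rsad2, Isg15, Usp18, Ifit1, Ifit2, Ifit3, Oas1a, Oasl2, Mx1, Mx2, Bst2, Ifih1, Ifi44 and Gbp2 make up the 14 classic targets. Their summed level was 74.3, 107 and 80.6 CPM in HS hearts 1, 2 and 3, and 131, 98.3 and 95.1 CPM in sham hearts 1, 2 and 3. HS hearts 1 and 3 were below all sham hearts and HS heart 2 was within their range. Of the 14, 12 had a log2 fold change below 0 (median -0.28), against 48.7% of all genes, and the others were Mx1 and Mx2.

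**Figure D3:**
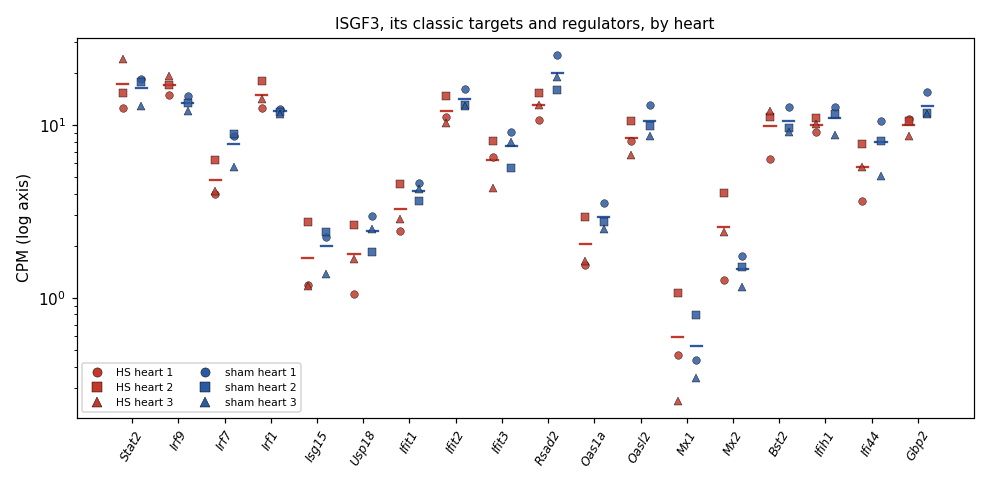
CPM (log axis, y) of Stat2, Irf9, Irf7, Irf1, classic targets and Gbp2 (x axis) in HS hearts (red, left of each pair) and sham hearts (blue, right), with the symbol giving the heart and the bar the mean of the 3 hearts. Rsad2, Irf9, Irf1 and Gbp2 have groups that do not overlap, and the other genes overlap.

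The guanylate-binding proteins attack the membranes of vacuoles that hold pathogens. All 9 tested Gbp genes had a log2 fold change below 0 (median -0.35), against 48.7% of all genes. Gbp6 was near 0 (-0.02 ± 0.25 SE). Of the 95% intervals, that of Gbp7 alone excluded 0. Gbp7 had 13.8, 19.7 and 14.2 CPM in HS hearts, against 25.4, 20.9 and 19.6 CPM in sham hearts. HS heart 2 was just above sham heart 3, and the other HS hearts were below all sham hearts (-0.47 ± 0.17 SE, adjusted p = 0.321). Gbp2 had 10.8, 10.6 and 8.59 CPM in HS hearts, against 15.5, 11.7 and 11.6 CPM in sham hearts. The groups did not overlap (-0.37 ± 0.16 SE, adjusted p = 0.376). Gbp6 had 29.2, 49.0 and 45.4 CPM in HS hearts, against 46.2, 48.6 and 30.0 CPM in sham hearts, and the lowest and highest heart were both HS hearts. Set against the mean of sham hearts on the log2 scale, the median of the 9 genes was -0.26, -0.09 and -0.71 in HS hearts 1, 2 and 3. The genes lie in 2 clusters, 4 of the tested ones on chr3:142493978-142638008 and 5 on chr5:105014150-105293698. Gbp4, Gbp8 and Gbp9 overlap each other on the same strand, so their separate values are uncertain.

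The Ifi200 genes encode DNA sensors and chromatin-bound regulators, and 10 of them were tested on chr1:173468485-174031810. Ifi203 had 46.3, 69.9 and 80.9 CPM in HS hearts, against 65.1, 54.4 and 62.0 CPM in sham hearts. It was the most abundant member by CPM, and HS hearts 2 and 3 were above and HS heart 1 below all sham hearts (log2 fold change 0.12 ± 0.20 SE, adjusted p = 0.801). Ifi205 had 9.38, 8.10 and 27.2 CPM in HS hearts, against 14.6, 8.02 and 14.3 CPM in sham hearts (0.27 ± 0.50 SE). Ifi207 had 7.04, 8.96 and 20.9 CPM in HS hearts, against 8.57, 5.75 and 9.02 CPM in sham hearts (0.65 ± 0.42 SE, adjusted p = 0.510). Both positive estimates rested on HS heart 3, and Ifi205 was -0.49 without it. Ifi203 and Ifi211 overlap the gene Mndal on the same strand. Of the 10, 5 were above 0 and 5 below, the latter with Ifi203-ps, which the annotation lists as a pseudogene.

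The Ifitm proteins block the fusion of viral envelopes with endosomes. Ifitm3 had 25.9, 30.4 and 30.3 CPM in HS hearts, against 35.0, 34.3 and 30.0 CPM in sham hearts. Sham heart 3 lay within the HS hearts (log2 fold change -0.20 ± 0.11 SE, adjusted p = 0.452). Ifitm5, in contrast, had 0.397, 1.03 and 1.52 CPM in HS hearts, against 0.120, 0 and 0 CPM in sham hearts. These were 11, 26 and 30 counts in HS hearts and 3, 0 and 0 counts in sham hearts, so all HS hearts were higher. Since it passed the count minimum only through HS hearts, the fitted values are given as a description. In edgeR the log2 fold change was 4.38 ± 0.96 SE (adjusted p = 0.212), and in DESeq2 its adjusted p was 0.00717. Without a filter on low counts edgeR's adjusted p was 0.0499. Ifitm5 overlaps the predicted gene Gm45717 on the same strand.

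Among the remaining members, Ifi27, a small protein of the mitochondrial and nuclear membranes, had 21.7, 11.5 and 20.7 CPM in HS hearts, against 11.1, 10.6 and 11.6 CPM in sham hearts. HS hearts 1 and 3 were well above all sham hearts, while HS heart 2 was within their range (log2 fold change 0.70 ± 0.23 SE, adjusted p = 0.303). Without HS heart 2, edgeR's adjusted p was 0.0170 (0.93). That fit called 287 of 15070 genes, against 9 of 14717 with all hearts. When HS hearts 1 and 3 were left out, the log2 fold change of Ifi27 was 0.05. These are the hearts with atrial markers and the highest smooth muscle and fibroblast markers, and the part of those in the level of Ifi27 was not tested. Ifi35, an interferon-induced leucine zipper protein, had 7.22, 8.17 and 8.49 CPM in HS hearts, against 10.6, 9.74 and 9.28 CPM in sham hearts. The groups did not overlap (-0.31 ± 0.13 SE, adjusted p = 0.350). Isg20, an exonuclease that degrades RNA, had 1.19, 1.18 and 2.95 CPM in HS hearts, against 1.48, 1.18 and 1.12 CPM in sham hearts, and HS heart 3 alone was high (0.48 ± 0.41 SE). Irf2bp2, the corepressor of Irf2, had 31.1, 32.3 and 68.3 CPM in HS hearts, against 26.8, 21.8 and 47.3 CPM in sham hearts. The highest HS heart and the highest sham heart were both the third, and Irf2bp2 was 0.45 ± 0.40 SE (adjusted p = 0.622).

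The level was next compared between genes per length, in RPKM (reads per kilobase of transcript, scaled for depth as CPM) from the summed exons. Ifitm3 (42.6 in HS, 48.8 in sham hearts) and Ifitm2 (42.5 in HS, 40.5 in sham) were the highest members. They were followed by Ifi27l2a (16.9 in HS, 15.5 in sham), Ifi27 (12.3 in HS, 7.57 in sham) and Bst2 (10.9 in HS, 11.6 in sham). These were the 5 highest members in HS hearts, while in sham hearts Ifi203 (9.80 in HS, 9.02 in sham) was above Ifi27. Isg15 was at 2.24 RPKM in HS and 2.65 in sham hearts, and Mx1 at 0.158 RPKM in HS and 0.139 in sham hearts. Of the 67 members, 61 had at least 10 counts in every heart. The rule asked for 10 counts in at least 3 of 6 hearts, so a level in most members was a condition of their entry. Of the 86 matched genes, 19 fell below that minimum.

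The order of the hearts was shared by many members. Within HS, HS heart 2 held the highest level in 37 of the 67 members (55.2%, against 31.2% of all tested genes), and HS heart 1 the lowest in 38 (56.7%, against 27.5%). Within sham, sham heart 1 was the highest in 49 members (73.1%, against 32.7%) and sham heart 3 the lowest in 43 (64.2%, against 35.0%). Among all 6 hearts, sham heart 1 was the highest in 31 members (46.3%, against 12.8%). These are counts over genes that share regulators, so they describe 6 hearts and are not 67 independent observations. The mean absolute log2 difference between 2 hearts, taken over the members, was 0.339 to 0.473 within sham and 0.551 to 0.602 within HS. Between the groups it was 0.311 to 0.689, so the pairs across groups spanned the range of the pairs within them.

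**Figure D4:**
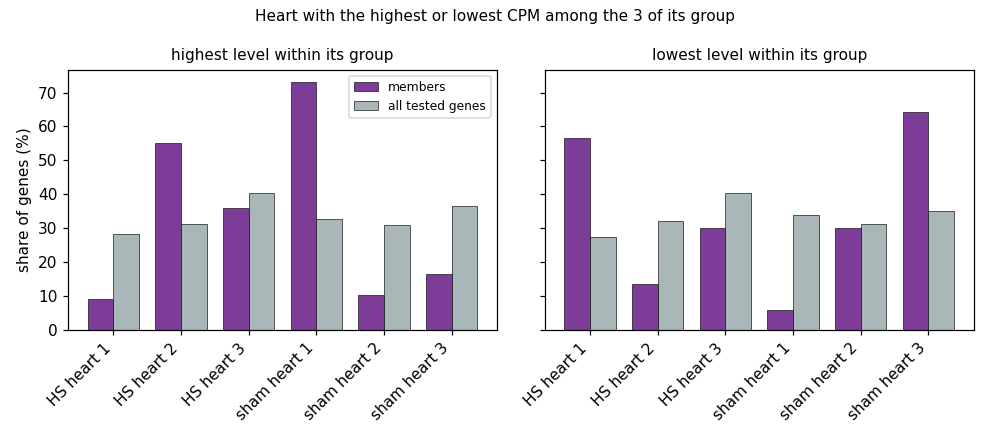
Share of genes (%, y axis) for which each heart (x axis, HS hearts before sham hearts) had the highest CPM (left panel) or the lowest CPM (right panel) among the 3 of its group, for the 67 members (purple) and all 14717 tested genes (grey). Sham heart 1 was the highest sham heart in 73.1% of members and HS heart 1 the lowest HS heart in 56.7%.

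Per heart and on the log2 scale, the members had a median difference to the mean of sham hearts of -0.33, 0.02 and -0.16 in HS hearts 1, 2 and 3, while over all genes it was between -0.01 and 0.01. For the classic targets it was -0.51, 0.08 and -0.55 in HS hearts 1, 2 and 3. Irf genes were at -0.05, -0.08 and 0.24, so HS heart 3 was not low in every family. The 29 members with an ISRE core had a median log2 fold change of -0.20 (9 above 0 and 20 below). The 22 members with a promoter but without the core had -0.02 (10 above and 12 below). Irf7 and the classic targets Ifit2, Oasl2 and Ifi44 are among the 22, so this split does not separate ISGF3 targets from other genes. HS hearts 1 and 3 are the hearts with the atrial markers and the highest smooth muscle and fibroblast markers. The share of tissue types in the members' levels was not tested.

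**Figure D5:**
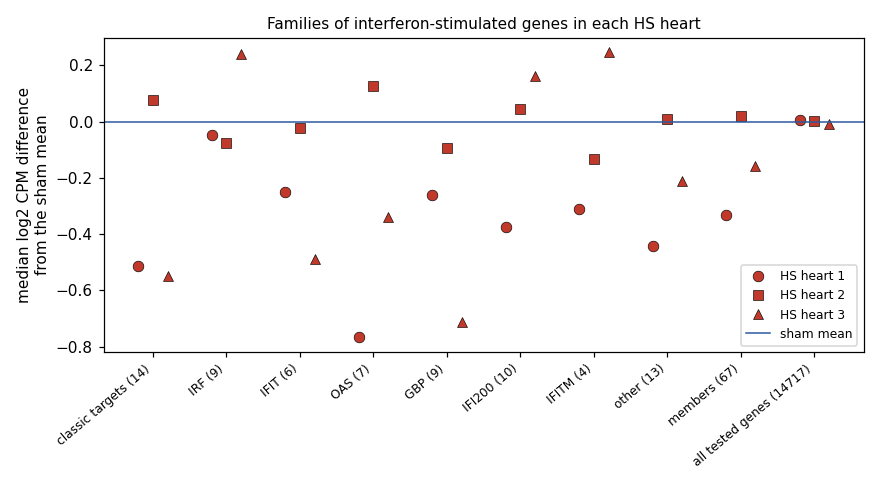
Median log2 CPM difference from the sham mean (y axis) of each gene family (x axis, number of genes in brackets) in HS heart 1 (circle), HS heart 2 (square) and HS heart 3 (triangle), with the sham mean as the blue line at 0. For the 14 classic targets HS hearts 1 and 3 lie at -0.51 and -0.55, and HS heart 2 at 0.08.

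The rest of the pathway was examined with lists of genes outside the rule. Of the ligands, 14 interferon genes were listed and found in the table, and other interferon genes were not looked up. Of the 14, 11 had 0 counts in every heart, which allows up to 0.108 to 0.152 CPM per library. The other 3 (Ifng, Ifnk and Ifnz) had at most 2 counts in any heart. The summed level of the 14 listed ligands was 0 to 0.108 CPM in HS and 0 to 0.0429 CPM in sham hearts, and 0 of them could be tested. Of the 9 receptor and kinase genes, 5 were above 0 and 4 below. Of these, 0 were called by edgeR at an adjusted p under 0.05, by DESeq2 or by limma-voom. At an unadjusted p under 0.05 there was 1, against 13.6% of all genes. That gene was Jak2, a kinase of the interferon gamma receptor, with 30.3, 32.0 and 33.6 CPM in HS hearts, against 27.9, 28.5 and 25.4 CPM in sham hearts (log2 fold change 0.23 ± 0.09 SE, adjusted p = 0.346). Of 14 tested nucleic acid sensors and adaptors, 9 were above 0 and 5 below, and 0 were called by any of these tools. Here too 1 had an unadjusted p under 0.05, against 13.6% of all genes. Tlr3, the endosomal sensor of double-stranded RNA, had 11.8, 15.0 and 12.5 CPM in HS hearts, against 9.81, 10.1 and 10.0 CPM in sham hearts. All HS hearts were above all sham hearts, as in 11.0% of all genes (0.39 ± 0.13 SE, adjusted p = 0.297).

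A second list held other interferon-stimulated genes that the rule does not name. Of the 45 tested, 11 were above 0 and 34 below (median -0.14), against 48.7% of all genes below 0. At an adjusted p, 0 were called by edgeR and 1 (Uba7) by DESeq2 (against 2.38% of all genes). At an unadjusted p under 0.05 there were 8, of which 1 was higher and 7 lower in HS (against 13.6% of all genes, 8.83% higher and 4.76% lower). Lgals3bp, a secreted glycoprotein, had 11.3, 14.0 and 11.8 CPM in HS hearts, against 20.1, 17.0 and 16.5 CPM in sham hearts. All HS hearts were lower, as in 10.9% of all genes (log2 fold change -0.53 ± 0.13 SE, adjusted p = 0.254). Uba7, the enzyme that activates Isg15, had 9.20, 10.1 and 5.90 CPM in HS hearts, against 15.7, 14.5 and 12.6 CPM in sham hearts. Its groups did not overlap either (-0.76 ± 0.21 SE, adjusted p = 0.266 in edgeR and 0.0473 in DESeq2). Znfx1, a helicase-like RNA sensor, had 31.2, 41.5 and 50.3 CPM in HS hearts, against 31.5, 27.8 and 31.0 CPM in sham hearts (0.44 ± 0.17 SE, adjusted p = 0.332). HS heart 1 lay among the sham hearts.

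Interferon gamma induces GTPases of the Irg family and the genes of antigen presentation. Of 22 such genes, 6 were above 0 and 16 below (median -0.13), against 48.7% of all genes below 0. At an adjusted p, 0 were called by edgeR or DESeq2, and 3 were lower at an unadjusted p (against 4.76% of all genes). Psme2, a subunit of the proteasome activator with a near-identical copy in the genome, had 18.1, 22.1 and 18.9 CPM in HS hearts, against 25.0, 24.6 and 23.8 CPM in sham hearts (log2 fold change -0.31 ± 0.11 SE). Psmb8, an immunoproteasome subunit, had 4.69, 5.61 and 3.96 CPM in HS hearts, against 6.90, 8.18 and 5.84 CPM in sham hearts (-0.55 ± 0.19 SE). Iigp1, a GTPase that disrupts parasite vacuoles, had 36.3, 40.8 and 19.8 CPM in HS hearts, against 52.2, 57.7 and 48.3 CPM in sham hearts (-0.70 ± 0.25 SE). All HS hearts were below all sham hearts in each of the 3 genes, as in 10.9% of all genes. The 3 genes were chosen for the smallest p of their list, so nothing is read from this separation. Their adjusted p in edgeR lay between 0.304 and 0.320. Of 8 tested inhibitors of the pathway, 4 were above and 4 below 0, and 0 were called by edgeR or DESeq2. At an unadjusted p under 0.05 there were 0, against 13.6% of all genes. Ptpn2, a phosphatase that dampens the pathway, was at -0.15 ± 0.14 SE.

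Markers of immune cells were set beside these values. The 8 macrophage markers summed to 104 to 111 CPM in HS and 102 to 121 CPM in sham hearts. Of the 8, 7 had a log2 fold change below 0, against 48.7% of all genes. The 4 monocyte markers summed to 3.00 to 5.69 CPM in HS and 7.18 to 8.33 CPM in sham hearts, and the receptor Ccr2 had 2.13, 0.829 and 0.407 CPM in HS hearts, against 3.91, 3.23 and 2.79 CPM in sham hearts (adjusted p = 0.304 in edgeR). HS hearts were thus below sham hearts for the monocyte sum without overlap, as for 10.9% of single genes. The sum was low, and only 2 of the 4 monocyte markers passed the filter. The 5 T and NK cell markers summed to 0.102 to 0.433 CPM in HS and 0.129 to 0.462 CPM in sham hearts, all under the filter. The 4 B cell markers, also under the filter, summed to 3.07, 0.474 and 0.661 CPM in HS hearts 1, 2 and 3, against 0.859 to 0.923 CPM in sham hearts, so HS heart 1 was the highest of all. The 5 neutrophil markers, of which 2 passed the filter, summed to 1.63 to 1.90 CPM in HS and 1.30 to 2.99 CPM in sham hearts. The 5 endothelial markers summed to 456 to 536 CPM in HS and 431 to 517 CPM in sham hearts. The 4 plasmacytoid dendritic cell markers summed to 103 to 121 CPM in HS and 107 to 115 CPM in sham hearts, but only 2 of them were tested. Irf8, which is itself a member, had 2.92 to 4.03 CPM in HS and 2.32 to 4.82 CPM in sham hearts. Nearly all of that sum thus came from the other tested gene, and it does not measure the amount of these cells. The part of these cell types in the levels of the members was not tested.

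Finally, transcripts were read within members. The leading transcript held over 90% of the counts in 38 of the 67 members and under 50% in 7. In 2 members chosen after their values were seen, the share of 1 transcript was uneven. Irf7-203 took 36.3, 37.2 and 30.1% of the counts of Irf7 in HS hearts, against 13.8, 9.24 and 13.9% in sham hearts. Oasl2-201 took 37.1, 46.5 and 38.3% in HS hearts, against 27.2, 20.9 and 25.1% in sham hearts. Both shares were higher in all HS hearts. How many transcripts of the other members separate in this way was not counted. The split within Irf7 also varied between HS hearts, where Irf7-210 took 43.3, 0 and 0% of 110, 159 and 82 counts. No shift between transcripts is read from these 2 members. These shares are estimates, because the program splits reads that fit several transcripts.

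At the border of the count minimum, Ifitm5, Ifi206 and Oas3 reached 10 counts in 3 hearts. Ifi206 had 4, 18 and 8 counts in HS hearts and 19, 10 and 6 counts in sham hearts, and Oas3 had 5, 11 and 17 counts in HS hearts and 15, 8 and 3 counts in sham hearts. Trim30b, with 4, 3 and 6 counts in HS hearts and 14, 7 and 15 counts in sham hearts, and Oas1c, with 8, 14 and 2 counts in HS hearts and 7, 3 and 6 counts in sham hearts, were the nearest below it. In all, 19 matched genes fell below the minimum, of which 7 had 0 counts in every heart.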

How the data were processed

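RNA of 3 HS and 3 sham hearts was measured. The authors cleaned reads with fastp, aligned them with Hisat2 (per the submitters' notes to mm10) and deposited a table of estimated counts by transcript, without normalization. No source used here names the program that assigned reads to transcripts. The libraries were strand-specific, but the strand setting of the counting is not given. The 149132 transcripts were summed to 57180 gene IDs and rounded to whole numbers (30.3% of values were not whole). Annotation was GENCODE vM21 (GRCm38), which held all 67 members.

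Low genes were removed with filterByExpr of edgeR (count 10, total 15). The quasi-likelihood test of edgeR 4.0.16 (TMM scaling, robust, with only the group in the model) was used on all 14717 genes with Benjamini-Hochberg adjustment, in R 4.3.3. Log2 CPM used a prior count of 2. DESeq2 1.42.0, limma 3.58.1 and other normalizations, filters and left-out hearts were alternatives. The study used DESeq2. Code was tested on simulated data. Figures used Python 3.11.15 and matplotlib 3.10.9.

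The members and lists were chosen with earlier results of these data known. Values by heart are given for 19 members of the ISGF3 axis, the 8 with the smallest p, the 5 most abundant, the 5 with the widest spread among HS hearts at 1 CPM or more, and up to 3 genes a list outside the rule, except 2 members that are not reported here. Other members were named for their level, copies or borders after their values were seen. The sources do not describe litter, day or batch, so p-values measure only the spread between these hearts, which may be partly technical. Groups of 3 against 3 allow an exact permutation p of at least 0.1. A count of 0 allows up to 3 counts, and such limits cover counting error only.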

Additional observations from a re-analysis of the deposited data

How the results depend on the processing

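The direction and side of the threshold held in 488 of 519 comparisons over the 29 named members and 18 alternatives, 28 turned in direction and 3 newly passed the threshold. The member calls were Ifitm5 without a filter and with DESeq2, and Ifi27 without HS heart 2. The cause of these changes was not tested.

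Of all genes, 9 were called as reported, against 16 with library size only, 84 with no filter, 4 with 10 counts in every heart, 351 with DESeq2, 49 with limma-voom and sample quality weights, 129 without HS hearts 1 and 3, and 2 (without sham heart 3) to 287 (without HS heart 2) when 1 heart was left out. Members called were 0 as reported, 1 with no filter, 1 with DESeq2 and 0 to 1 when 1 heart was left out. Members past the study's thresholds were 1 as reported (against 3.89% of all genes) and 0 with 10 counts in every heart (Ifitm5 does not pass that filter). They were 1 to 3 (most without HS heart 2) when 1 heart was left out. The share of all genes past these thresholds was not taken under the alternatives, so nothing is read from that change. Members at an unadjusted p were 3 higher and 4 lower in HS as reported, against 13.6% of all genes in either direction. The higher ones were 5 without HS hearts 1 and 3 and 1 to 7 when 1 heart was left out. The lower ones were 7 with no filter, 8 with sample quality weights, 1 without HS hearts 1 and 3, and 0 to 13 when 1 heart was left out. The share of all genes in either direction also moved, to 9.37% with no filter, 17.0% with sample quality weights, 11.7% without HS hearts 1 and 3, and 7.29% to 21.2% when 1 heart was left out. Without HS hearts 1 and 3, the spread of the single HS heart is taken from the sham hearts.

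Without HS hearts 1 and 3, the log2 fold change turned for Bst2 (0.076), Gbp6 (0.23), Ifi205 (-0.60), Ifit1 (0.13), Ifit2 (0.056), Ifit3 (0.092), Isg15 (0.44), Isg20 (-0.085), Oasl2 (0.0048), Stat2 (-0.10) and Usp18 (0.11). With sample quality weights it turned for Ifi203 (-0.088), Ifi205 (-0.20) and Stat2 (-0.24), and with library size only for Stat2 (-0.0043). When 1 heart was left out, it ranged from -0.28 to 0.13 for Bst2, -0.21 to 0.18 for Gbp6, -0.058 to 0.31 for Ifi203, -0.49 to 0.56 for Ifi205, -0.013 to 0.84 for Irf2bp2, -0.082 to 0.69 for Isg20, -0.50 to 0.61 for Mx1 and -0.24 to 0.25 for Stat2. The median over the members stayed below 0 under all alternatives, and it was -0.16 over the 58 members left when Irf2bp genes, Isg20l2 and most Irf genes were dropped.

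HS and sham hearts carry the same numbers in the labels, but same-numbered hearts did not deviate together (correlations of -0.06, 0.13 and 0.01). With a replicate block, 0 members and 9 genes were called, and the median was -0.13. At an unadjusted p, 4 members were higher (against 7.57% of all genes) and 6 were lower in HS (3.83%). The depth limits what can be said of the least abundant members, such as Mx1 and Ifitm5, with at most 30 counts per heart.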
